A study of Mus musculus with 4 samples.

Results

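The genes that set the pace of the G1 phase of the cell cycle were examined in fibroblasts with a mutated nuclear receptor corepressor: the CDK inhibitors of the Cip/Kip family (Cdkn1a, Cdkn1b and Cdkn1c), those of the INK4 family (Cdkn2a, Cdkn2b, Cdkn2c and Cdkn2d) and the D-type cyclins (Ccnd1, Ccnd2 and Ccnd3). The members were chosen by symbol: every probe set that the platform's annotation gives to exactly 1 of these 10 symbols, with the probe set of the highest mean signal as the main one of its gene. All 10 genes were found, of 18193 genes with a named probe set, and they had 22 probe sets. RNA came from 2 groups of 3T3-MEFs, lines grown from mouse embryonic fibroblasts by serial passage: wild-type cells (2 arrays) and SMRTmRID cells (2 arrays), whose SMRT corepressor is mutated in the domains that nuclear receptors bind. Both groups were undifferentiated and were harvested at confluence. The labels call the arrays of a genotype technical replicates. They do not say how many embryos or lines a genotype stands for, so p-values measure only the spread between these arrays, and a difference between the genotypes cannot be told apart from a difference between the lines that carry them.

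D-type cyclins bind the kinases CDK4 and CDK6 in response to growth factors, and the active kinases phosphorylate the retinoblastoma protein, which releases E2F factors to switch on genes of DNA replication. INK4 proteins bind CDK4 and CDK6 and keep the D cyclins off, while Cip/Kip proteins block the CDK2 complexes with cyclins E and A and also help to assemble cyclin D with CDK4. In cultured mouse embryonic fibroblasts the Cdkn2a locus and the p53 pathway, whose target Cdkn1a encodes p21, are known as the main barriers to endless growth, and lines that pass this barrier have often lost part of that pathway.

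The sequences just upstream of the transcription starts of Cdkn1a, Cdkn2a and Cdkn2b are shown first, because these 3 inhibitor genes had the greatest differences between the genotypes. They are taken from RefSeq (GRCm38.p6), which held 11 such windows for 7 of the 10 genes here. Each run is the 250 bases before a start, 5′ to 3′ on the gene's own strand, and capitals mark the motifs that were searched. Cdkn1a has a window at chr17:29090729-29090978 and one at chr17:29093519-29093768, both on the plus strand, and their starts lie 2790 bases apart. Cdkn2a has one at chr4:89294620-89294869 and one at chr4:89282193-89282442 on the minus strand, for the 2 first exons from which its p19ARF and p16INK4a transcripts begin, with starts 12427 bases apart. The window of Cdkn2b is at chr4:89311033-89311282, also on the minus strand.
Cdkn1a upstream start: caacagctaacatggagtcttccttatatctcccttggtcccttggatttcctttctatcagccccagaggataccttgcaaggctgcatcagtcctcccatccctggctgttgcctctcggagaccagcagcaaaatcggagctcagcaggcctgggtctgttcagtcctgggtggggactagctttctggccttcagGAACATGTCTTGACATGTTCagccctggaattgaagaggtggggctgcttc
Cdkn1a downstream start: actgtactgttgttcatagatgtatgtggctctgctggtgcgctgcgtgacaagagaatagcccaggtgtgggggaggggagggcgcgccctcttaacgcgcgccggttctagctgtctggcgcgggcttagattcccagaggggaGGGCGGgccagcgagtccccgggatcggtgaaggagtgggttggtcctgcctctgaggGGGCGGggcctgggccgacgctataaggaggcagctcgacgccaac
Cdkn2a upstream start: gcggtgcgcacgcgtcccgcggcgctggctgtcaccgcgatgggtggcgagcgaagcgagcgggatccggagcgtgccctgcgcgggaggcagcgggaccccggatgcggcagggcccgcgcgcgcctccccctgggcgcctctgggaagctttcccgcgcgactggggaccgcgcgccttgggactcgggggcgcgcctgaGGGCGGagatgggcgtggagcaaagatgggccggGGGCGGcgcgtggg
Cdkn2a downstream start: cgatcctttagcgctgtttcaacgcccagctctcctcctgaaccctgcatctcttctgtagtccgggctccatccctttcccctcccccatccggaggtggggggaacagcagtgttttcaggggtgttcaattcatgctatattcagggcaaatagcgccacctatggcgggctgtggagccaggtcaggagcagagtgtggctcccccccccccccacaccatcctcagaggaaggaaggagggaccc
Cdkn2b start: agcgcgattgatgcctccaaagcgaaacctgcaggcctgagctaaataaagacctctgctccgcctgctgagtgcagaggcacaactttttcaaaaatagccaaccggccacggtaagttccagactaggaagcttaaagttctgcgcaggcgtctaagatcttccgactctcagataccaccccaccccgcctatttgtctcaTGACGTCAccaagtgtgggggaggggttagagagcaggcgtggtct

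The motifs searched, on both strands, were the GC box GGGCGG, the CCAAT box CCAAT, the cyclic AMP response element TGACGTCA, the E-box CACGTG and the p53 element, taken as 2 adjacent consensus half-sites with at most 1 mismatch in all. Among the 32851 windows of this length in the table, 32.7% held the GC box, 33.8% the CCAAT box, 1.55% the cyclic AMP element, 6.02% the E-box and 0.0761% the p53 element. The upstream window of Cdkn1a held the p53 element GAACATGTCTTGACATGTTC, at bases 51 to 32 before that start, which lies in chr17:29090928-29090947 and ends 2822 bases before the downstream start. The downstream Cdkn1a window and the upstream Cdkn2a window held 2 GC boxes each, and the window of Cdkn2b held 1 cyclic AMP element at bases 46 to 39 before the start. A match describes the letters of the sequence and does not show that a factor bound there.

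All 10 genes lay above the filter on signal, a mean over the 4 arrays above 35.1 (the median of all values), and all 10 passed the test between genotypes, 5 higher and 5 lower in SMRTmRID (limma, Benjamini-Hochberg adjusted p under 0.05 over all genes tested). Of all 11056 genes tested, 65.2% passed, 30.3% higher and 35% lower, so a pass by itself is common here. For each of the 10 the 2 genotypes' arrays were fully apart, as they were for 81.5% of all tested genes. Differences are SMRTmRID minus wild-type, in log2(signal + 16); the added 16 makes a change from a low signal look smaller. The median absolute difference was 1.00 for the 10 genes and 0.431 for all tested genes, and 5 of the 10, against 16.5% of all, differed by 1 or more. The signed median was -0.21 for the 10 and -0.045 for all tested genes. Signals are linear MAS5 values and, apart from the sums of marker genes, are compared within a probe set only. In RNA from whole cultures, fewer cells that express a gene and less of its RNA per cell cannot be told apart.

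**Figure D1:**
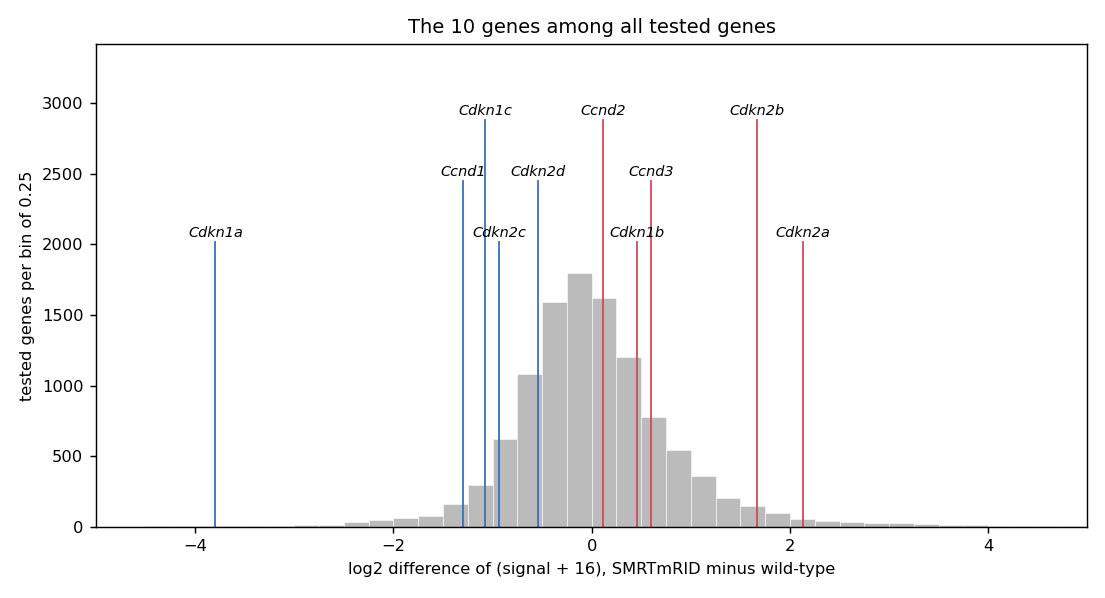
Histogram of the log2 differences of (signal + 16), SMRTmRID minus wild-type, of all 11056 tested genes in bins of 0.25, within -5 to 5. Coloured lines mark the 10 genes, blue where lower and red where higher in SMRTmRID. Cdkn1a at -3.79 and Cdkn2a at 2.13 stand in the tails, and Ccnd2 at 0.11 lies within the bulk of all genes.

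The Cip/Kip genes split, with a deep fall of Cdkn1a, a fall of Cdkn1c and a modest rise of Cdkn1b. Cdkn1a encodes p21, which blocks CDK2 and binds the replication clamp PCNA. Its main probe set read 2374 and 2325 on the wild-type arrays and 171 and 139 on the SMRTmRID arrays. Both SMRTmRID arrays lay far below both wild-type arrays, with a ratio of the means of 15.1 in favour of wild-type. On the log2 scale this was -3.79 ± 0.09 (SE, n = 2 and 2, limma adjusted p = 1.50e-09), and 99.4% of the tested genes had a smaller absolute difference. Another probe set of Cdkn1a gave 1089.8 and 1145 for wild-type against 46.1 and 49.2 for SMRTmRID, a ratio of 23.4 (-4.15 ± 0.09 SE in log2). The fall was therefore seen by both of its probe sets.

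Cdkn1b encodes p27, the inhibitor that accumulates when cells leave the cycle at confluence or without serum. Its main probe set read 714 and 723 for wild-type against 1021 and 961 for SMRTmRID, so that the lower SMRTmRID array still exceeded the higher wild-type array. The rise was 1.38-fold (0.45 ± 0.06 SE in log2, limma adjusted p = 0.000100), and after median centring the difference was 0.29. The other probe set, with signals of 123 and 123 against 169 and 156, gave 0.36 ± 0.13 (SE). Cdkn1c encodes p57, an imprinted inhibitor of embryonic tissues. It was measured by 1 probe set, at 197 and 200.045 for wild-type against 73.7 and 99.5 for SMRTmRID. The SMRTmRID arrays were 2.29-fold lower on average and lay below both wild-type arrays (-1.08 ± 0.16 SE in log2, limma adjusted p = 0.000227).

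The INK4 genes split by locus. The neighbours Cdkn2a and Cdkn2b on chromosome 4 rose, and Cdkn2c, elsewhere on chromosome 4, and Cdkn2d on chromosome 9 fell. Cdkn2a encodes p16INK4a and, in another reading frame, p19ARF, which protects p53 by binding MDM2. Its only probe set read 159 and 114 for wild-type against 623 and 670.4 for SMRTmRID. The wild-type arrays spread more widely in relative terms than those of SMRTmRID, yet both stayed far below either SMRTmRID array. The ratio of the means was 4.72 (2.13 ± 0.13 SE in log2, limma adjusted p = 7.59e-07). RefSeq lists 2 curated transcripts of Cdkn2a with a shared 3′ part, and which of them this probe set read was not analysed here.

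Cdkn2b encodes p15INK4b, an inhibitor induced by TGF-beta. It read 772 and 808 for wild-type against 2561 and 2539 for SMRTmRID, with close agreement within each genotype and a 3.23-fold rise between them (1.67 ± 0.05 SE in log2, limma adjusted p = 8.68e-09). Cdkn2c encodes p18INK4c and read 882 and 968 for wild-type against 488 and 464 for SMRTmRID. That was a 1.94-fold fall (-0.93 ± 0.07 SE in log2, limma adjusted p = 2.25e-06). Cdkn2d encodes p19INK4d, a protein distinct from p19ARF, and had 426 and 462 against 297 and 304. It fell by 0.54 on the log2 scale (SE 0.08, limma adjusted p = 0.000283), the smallest difference among the 7 inhibitors after that of Cdkn1b. The 95% intervals of the INK4 differences, from 1.83 to 2.43 for Cdkn2a, 1.56 to 1.79 for Cdkn2b, -1.09 to -0.78 for Cdkn2c and -0.72 to -0.35 for Cdkn2d, stayed away from 0 in each case.

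Each of the D cyclins had its own course: Ccnd1 fell, Ccnd3 rose, and Ccnd2, at a high signal in both genotypes, differed little. Ccnd1 encodes cyclin D1, the D cyclin that fibroblasts induce on growth factor stimulation. Its main probe set read 2491 and 2272 for wild-type against 951 and 962 for SMRTmRID, a ratio of 2.49 (-1.30 ± 0.06 SE in log2, limma adjusted p = 8.05e-08). Its 2 other probe sets had 1859 and 1844 against 613 and 627, and 1668 and 1636 against 659 and 650. All 3 therefore placed SMRTmRID below wild-type by similar amounts, with log2 differences from -1.55 to -1.30.

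Ccnd2 encodes cyclin D2. Its main probe set read 3704 and 3732 for wild-type against 4062 and 3972 for SMRTmRID, a ratio of 1.08. The log2 difference of 0.11 (95% interval 0.013 to 0.21) passed narrowly in the test by gene (adjusted p = 0.0480, limma) and missed in the test by probe set (adjusted p = 0.0539, limma). Only 14.0% of the tested genes had a smaller absolute difference. All 7 probe sets of Ccnd2 were on the higher side in SMRTmRID, from 0.11 to 0.27, and 5 of them passed in the fit by probe set. After median centring of the arrays the main probe set turned to -0.051 (adjusted p = 0.691, limma). Over the 13 alternative settings it passed in 5, with adjusted p from 0.000256 to 0.691. The call went whichever array was left out, at 0.158 for wild-type replicate 1, 0.123 for wild-type replicate 2, 0.151 for SMRTmRID replicate 1 and 0.0625 for SMRTmRID replicate 2. Quantile normalization gave 0.24 and the average of the probe sets 0.21.

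Ccnd3 encodes cyclin D3, which many cell types raise as they differentiate. Its main probe set read 875 and 817 for wild-type against 1306 and 1278 for SMRTmRID, a 1.53-fold rise with both SMRTmRID arrays above both wild-type arrays (0.60 ± 0.06 SE in log2, limma adjusted p = 1.18e-05). The other 2 probe sets of Ccnd3 were dim and did not show it. One read 55.3 and 38.4 for wild-type against 41.9 and 43.1 for SMRTmRID (-0.091 in log2, 95% interval -0.63 to 0.45), and the other, at 3.35 to 26.6, lay under the filter. Averaged over all 3 probe sets, Ccnd3 no longer passed (0.24, limma adjusted p = 0.284, in a range of 4.13e-10 to 0.284 over the alternatives).

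**Figure D2:**
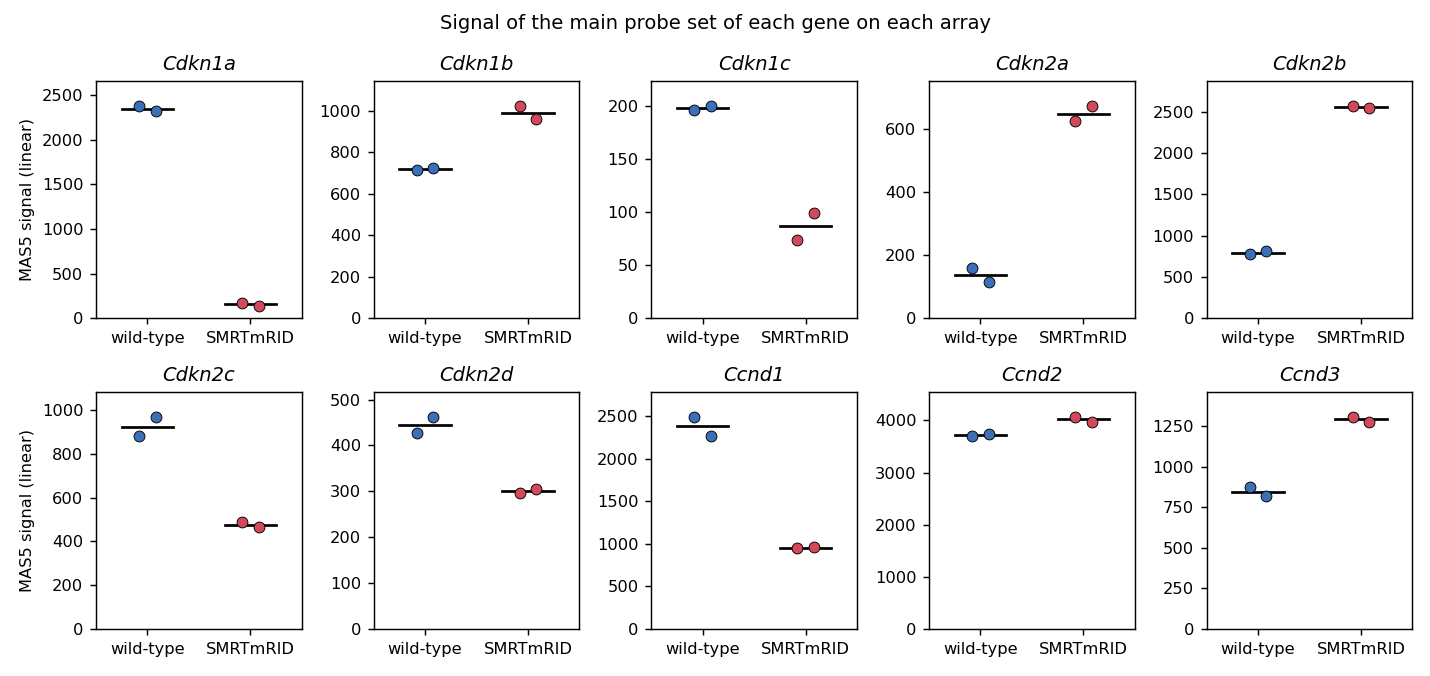
MAS5 signal on a linear axis from 0 of the main probe set of each of the 10 genes, with 1 point per array (blue wild-type, red SMRTmRID, 2 arrays each) and a line at the mean. The arrays of the genotypes do not overlap in any panel; as a ratio of the means the genotypes differ most for Cdkn1a (2374 and 2325 against 171 and 139) and least for Ccnd2 (1.08).

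Over the family, 21 of the 22 probe sets could be tested and 18 passed, 10 higher and 8 lower, where 61.1% of the 20078 tested probe sets of the table passed. Arrays did not overlap for 19 of the 21, against 79.7% of all tested probe sets. Probe sets of 1 gene share its RNA and are not replicates. For 4 of the 5 genes with several probe sets, all tested ones had the same sign, the exception being Ccnd3. Median centring left 4 of the 10 higher calls, and a fit without a variance trend left 5, while all 8 lower calls stood in both.

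**Figure D3:**
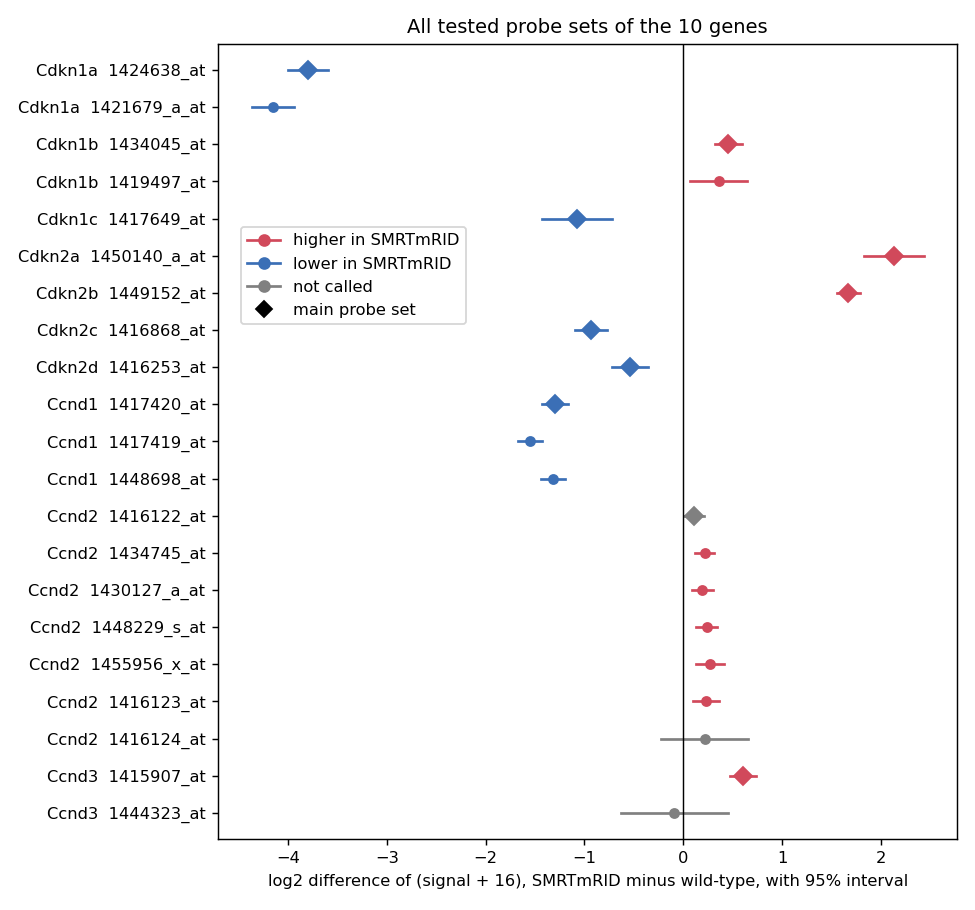
Log2 difference of (signal + 16), SMRTmRID minus wild-type, with its 95% interval for each of the 21 tested probe sets, by gene. Diamonds are main probe sets, and colour gives the call in the fit by probe set (red higher, blue lower, grey not called). Both Cdkn1a probe sets lie near -4, the 3 of Ccnd1 between -1.55 and -1.30, and the 7 of Ccnd2 between 0.11 and 0.27.

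How many genes were called in each direction depended on the scaling. Median centring gave the arrays a common median over all probe sets but the controls, including those under the filter. With the deposited scaling 46.4% of all called genes were higher, and with median centring 34.3%, as the median of all tested genes moved from -0.045 to -0.21. Ccnd2 was the one gene of the 10 whose direction turned with it.

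Genes beside the 10 on their chromosomes were set next to them, 3 with a named probe set on each side. Of 54 such genes that are no members, 32 were tested, and 5 were higher and 16 lower. Among all tested genes 65.2% passed, 30.3% higher and 35% lower. In the INK4 locus, Mtap, the gene of a methionine salvage enzyme next to Cdkn2a, read 1462 and 1520.0 for wild-type against 2088 and 2124 for SMRTmRID (0.49 ± 0.05 SE in log2), less than the 2.13 and 1.67 of the inhibitors beside it. Dmrta1, on the far side of Cdkn2b, lay under the filter. Beside Cdkn1a, whose own difference was -3.79, the kinase gene Stk38 rose by 0.99, or by 0.27 without passing as an average of its probe sets (limma adjusted p = 0.0688, the highest of its alternatives, with 2.20e-14 the lowest). In the imprinted region of Cdkn1c, the transporter gene Slc22a18 read 52.7 and 63.8 for wild-type against 35.5 and 7.56 for SMRTmRID. Its log2 difference of -1.09 passed (adjusted p = 0.0277, limma) but not when wild-type replicate 1 (0.0509) or SMRTmRID replicate 2 (0.157) was left out, with no filter (0.0805) or with no trend in the variance (0.0771), in a range of 0.000177 to 0.157 over the alternatives. The difference was -1.65 when SMRTmRID replicate 1 was left out and -0.53 when SMRTmRID replicate 2 was. Nap1l4, of the same region, fell by 0.62, and the noncoding RNA gene Kcnq1ot1 had 0.39, or 0.20 when SMRTmRID replicate 2 was left out, and was not called. Beside Cdkn2d, the transporter gene Slc44a2 fell by 1.06 and Qtrt1, which encodes a subunit of a tRNA-modifying enzyme, by 1.40. Fgf23, a hormone gene near Ccnd2, read 4.70 and 18.9 for wild-type against 50.9 and 83.3 for SMRTmRID (1.60 in log2). At such low signals the size depends on the pseudocount: with 1 and with 64 in place of 16, Fgf23 had 2.63 and 0.78, and Slc22a18 -1.74 and -0.53.

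**Figure D4:**
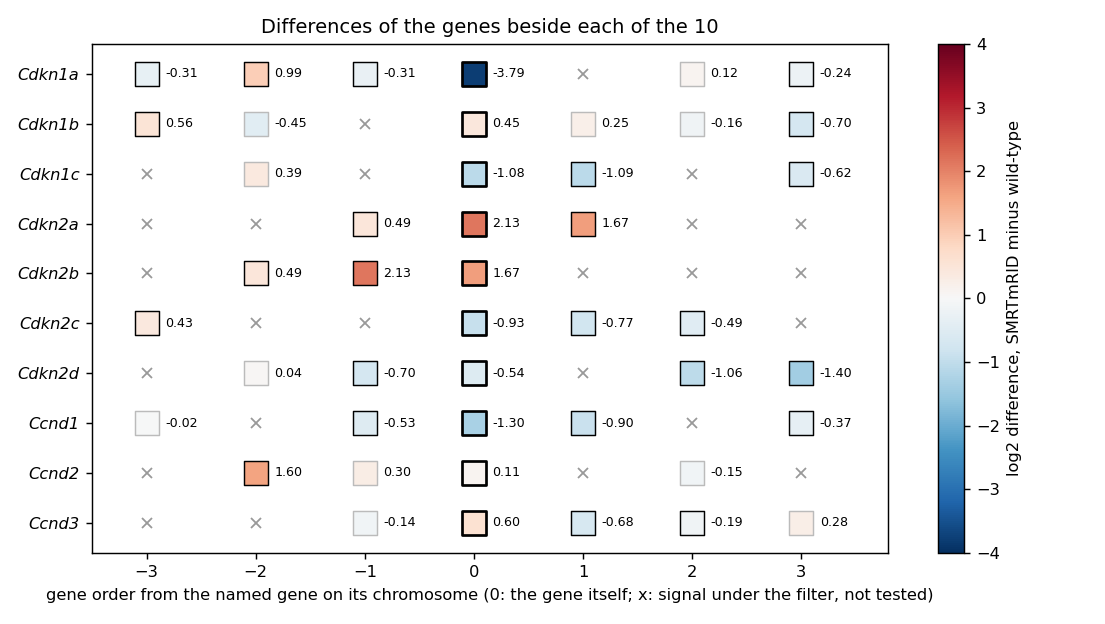
Each row is one of the 10 genes (position 0) with the 3 nearest named genes on either side in chromosome order. Squares are coloured by the log2 difference, which is printed beside them, with a dark border where the gene passed and a pale one where it did not, and a cross marks a gene under the filter. Cdkn2a and Cdkn2b are each other's neighbours and both rise, by 2.13 and 1.67, while Cdkn1a at -3.79 has called neighbours between -0.31 and 0.99.

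The partners of these proteins were mostly lower. Of 17 tested G1 and S-phase CDKs, cyclin partners and CDK regulators, 12 were lower, 2 higher and 3 not called. Their median was -0.30 against -0.045 for all genes, of which 30.3% were higher and 35% lower. The list also holds Wee1 and Pkmyt1, kinases that inhibit CDKs. Wee1 was among the lower genes (-0.30), and Pkmyt1 was not called. Cdk4, which encodes the kinase that D cyclins activate, fell from 2738 and 3060 to 1746 and 1846, a log2 difference of -0.68, whereas the gene of its sister kinase, Cdk6, had 553 and 566 against 545 and 535 and did not pass (-0.049 ± 0.06 SE). Cdk2 and Ccne1, which encode the kinase and the cyclin that Cip/Kip proteins block, had -0.52 each, and Ccna2, the cyclin A gene of S phase, -0.70. Cdc25b, a phosphatase that activates CDKs, fell by 1.04. Ccna2 had -0.39 as an average of its probe sets, and Cdk2 missed (-0.32, limma adjusted p = 0.0881, the highest of its alternatives, with 1.47e-08 the lowest). The cyclin E2 gene Ccne2 rose by 0.64, but missed when SMRTmRID replicate 2 was left out (limma adjusted p = 0.0518, the highest of its alternatives, with 0.00376 the lowest).

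The retinoblastoma and E2F genes went both ways, with 5 of 12 higher, 4 lower and a median of 0.036. After median centring 3 were higher and 4 lower. The shares over all tested genes were 30.3% higher and 35% lower. Rb1, the retinoblastoma gene, read 103 and 50.7 for wild-type against 182 and 204 for SMRTmRID (1.22 ± 0.24 SE in log2, 0.80 when wild-type replicate 2 was left out and 0.50 as an average of its probe sets). E2f5, a repressor E2F, rose by 1.06. The atypical repressors E2f7 and E2f8 fell by 1.00 and 1.11. Among 23 tested E2F target genes of replication, 17 fell and 3 rose, with a median of -0.55. Mcm5, of the replicative helicase, and Rrm2 and Rrm1, of ribonucleotide reductase, had -1.61, -1.56 and -0.94, and Gins2 had -0.92. As an average of its probe sets Rrm1 had -0.41. Pola1, a DNA polymerase subunit gene, rose by 0.76, and Slbp, which encodes the histone mRNA binding protein, by 0.46. Tyms, the other target that rose, had the greatest rise of the 3 at 0.82. Its signals were low, at 29.8 and 34.5 for wild-type against 64.2 and 73.9 for SMRTmRID. Slbp missed as an average of its probe sets (0.17, limma adjusted p = 0.284, against 3.11e-08 at the lowest of its alternatives).

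The p53 pathway, which acts on Cdkn1a, was mostly lower. Of 24 tested genes of p53 regulation and p53 targets other than Cdkn1a, 17 were lower and 5 higher, with a median of -0.74. Over all tested genes 35% were lower and 30.3% higher, with a median of -0.045. The p53 gene itself, Trp53, had no named probe set and was not tested. Perp and Phlda3, which act in apoptosis, Aen, a nuclease gene, and the receptor gene Eda2r had log2 differences of -5.10, -2.27, -2.31 and -1.98. The target genes Ddb2 and Fas, for a DNA repair protein and a death receptor, rose by 0.93 and 0.82. The p53 element searched above stood upstream of 25 genes in all. On the arrays 11 of these were named and 6 tested, and 4 of the 6 were lower and none higher, beside the 35% lower among all genes tested. Besides Cdkn1a they were Ccng1, a p53 target, with -1.59, the ribosomal protein-like gene Rps27l with -0.97 and the folate enzyme gene Mthfd1 with -1.16. The cut of 1 mismatch was set after the Cdkn1a sequence had been read. Cdkn1a was therefore in the count of lower genes from the outset. The count beside 35% is a description and no conclusion is drawn from it.

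Polycomb proteins and other regulators of the INK4 locus went both ways, with 9 of 22 higher, 9 lower and a median of -0.11. For comparison, 30.3% of all tested genes were higher and 35% lower. After median centring 5 of the 22 were higher and 11 lower. Id1, an inhibitor of helix-loop-helix factors, and the Polycomb genes Cbx8 and Eed fell by 1.10, 0.93 and 0.87. Ets1, a factor that activates Cdkn2a, rose by 0.99, and Dmtf1, an activator of the ARF promoter, by 0.76. Cbx2, Ring1, Phc2, Ezh1 and Kdm2b of this list were also lower, with -0.69, -0.48, -0.51, -0.75 and -0.76. The Polycomb genes Suz12, Cbx7, Rnf2 and Ezh2 were higher, with 0.75, 0.83, 0.39 and 0.17, as was Bmi1. Signals of Cbx7 were low, at 43.6 and 37.5 for wild-type against 87.6 and 81.2 for SMRTmRID. As averages of their probe sets Eed and Suz12 had -0.46 and 0.38. Bmi1, a repressor of Cdkn2a, read 672 and 774 for wild-type against 842 and 948 for SMRTmRID (0.30, limma adjusted p = 0.00944). Its call was lost after median centring (0.246), with no trend in the variance (0.0749), and when wild-type replicate 1 (0.0642) or SMRTmRID replicate 2 (0.0666) was left out, with 0.000111 the lowest over its alternatives; its difference was 0.14 after median centring, 0.20 without wild-type replicate 1 and 0.53 as an average of its probe sets.

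The factors that degrade the inhibitors and D cyclins went both ways as well, with 5 of 17 higher and 8 lower (median -0.28). Those counts stand beside 30.3% higher and 35% lower among all tested genes. After median centring 3 were higher and 11 lower. Skp2, whose ligase marks p27 for degradation, and Cul1, the scaffold of that ligase, rose by 0.61 and 0.79. Gsk3b, the gene of a kinase that marks cyclin D1 for export and degradation, rose by 0.53. Cops5, which encodes a signalosome subunit that binds p27, Rnf123, a ligase gene for p27, and Cdc20, an activator of the anaphase-promoting complex, fell by 0.72, 0.69 and 1.24. As an average of its probe sets Cops5 fell by 0.40.

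Transcription factors that act on the inhibitor genes were higher in 9 of 16 and lower in 5, with a median of 0.19. Among all tested genes 30.3% were higher and 35% lower. After median centring 5 of the 16 were higher and 6 lower, and after quantile normalization 7 and 6. Klf4, an activator of Cdkn1a, fell from 1719 and 1656 to 319 and 273, a log2 difference of -2.45. Runx1 and Sp3 rose by 1.53 and 1.19, and Runx1 by 1.00 as an average of its probe sets. Trp63, a relative of the p53 gene, read 41.9 and 67.9 for wild-type against 95.9 and 92.6 for SMRTmRID. Its 0.66 passed, but not when wild-type replicate 1 (0.39, limma adjusted p = 0.142), SMRTmRID replicate 1 (0.0878) or SMRTmRID replicate 2 (0.0677) was left out, without a filter (0.0836) or after quantile normalization (0.0911), in a range of 0.00693 to 0.142 over the alternatives. Mitogen-induced and Wnt factors that act on D cyclin genes were higher in 7 of 17 and lower in 6, beside 30.3% and 35% of all tested genes. Their median was 0.053. After median centring 5 were higher and 8 lower. The AP-1 genes Jund and Fosl2 fell by 0.98 each, Fos rose by 0.96, and Creb1, the factor that binds the cyclic AMP element, rose by 0.92. As an average of its probe sets Creb1 missed (0.22, limma adjusted p = 0.156, with 4.54e-09 the lowest of its alternatives), while Jund and Fosl2 had -0.58 and -0.57. Myc read 884 and 986 against 743 and 758, a log2 difference of -0.31.

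**Figure D5:**
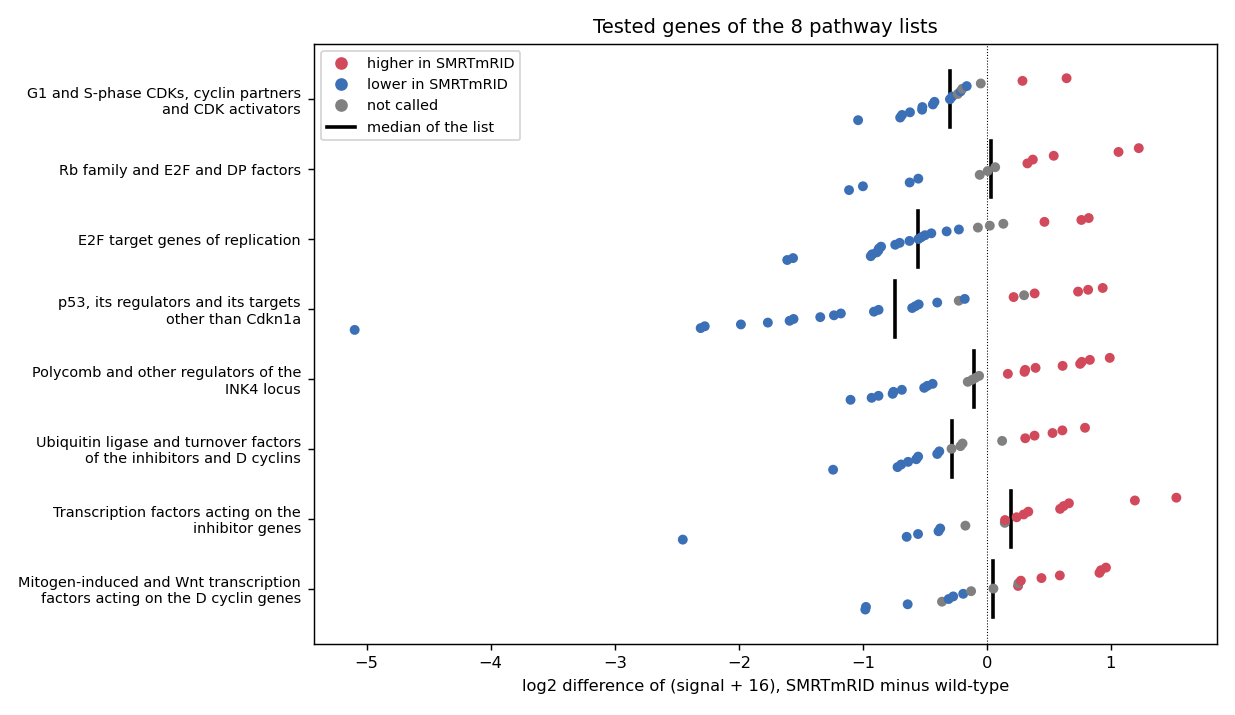
Log2 difference of (signal + 16), SMRTmRID minus wild-type, of each tested gene in the 8 lists of partners, targets and regulators, with 1 point per gene (red higher, blue lower, grey not called) and a black bar at each list's median. Medians run from -0.74 for p53 genes and -0.55 for E2F targets to 0.19 for factors acting on the inhibitor genes; the point at -5.10 is Perp.

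By pattern over the 4 arrays, each gene centred on its own mean of log2(signal + 16), the tested genes nearest to Cdkn1a were Chil1, Cspg4, Tnfrsf11b, Ifi202b and Ntrk3, at Euclidean distances of 0.0745 to 0.254. Those nearest to Cdkn2a, the member with the greatest rise, were Siglecg, Gpsm3, Notch3, Zfp53 and 2810433D01Rik, at 0.0605 to 0.112. With 2 arrays a genotype such likeness rests mainly on the size of the difference between the genotypes.

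The cells were checked against marker genes. The summed signal of 10 fibroblast markers was 61099 and 63254 for wild-type against 83849 and 79878 for SMRTmRID, with 7 markers higher and 2 lower. This count and those of the other marker lists below stand beside 30.3% higher and 35% lower among all tested genes. The genotypes stood far apart in some of the fibroblast markers. Thy1, a fibroblast surface marker, read 20.6 and 6.57 for wild-type against 3172 and 3184 for SMRTmRID (6.80 in log2). Fap, another, read 4.20 and 9.04 against 484 and 472 (4.46 in log2), and the growth factor receptor gene Pdgfra was 19.5-fold higher, at 247 and 262 against 4828 and 5090.5. With pseudocounts of 1 and 64, Thy1 had 7.96 and 5.39, and Fap 6.05 and 2.94. Col1a1, Col1a2, Col3a1 and Vim were bright in both, from 9014 upward on every array. All 6 endothelial markers had a mean over the 4 arrays under the filter, with sums of 74.3 and 87.7 against 81.2 and 76.8. Of 6 blood markers 3 were tested and 1 was higher (sums 377 and 193 against 359 and 342). Epithelial markers had 1 of 2 tested lower (309 and 329 against 241 and 255), muscle markers 1 of 1 lower (364 and 216 against 70.8 and 55.7) and neural markers, 3 of 4 of which were named, 1 of 3 lower (332 and 379 against 279 and 235). None of these markers was at 0. A sum adds unlike probe sets and is led by the brightest. The muscle sum was mostly Acta1, at 324 and 203 for wild-type against 8.63 and 4.35 for SMRTmRID. Myod1, Myog and Des lay under the filter. The part of other cell types in the differences was not tested. Across the tested genes the arrays of a genotype correlated at 0.991 in both genotypes, and arrays of different genotypes at 0.860 to 0.861.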

How the data were processed

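Total RNA of 4 samples was hybridised as biotin-labelled cRNA to Affymetrix arrays, 2 per genotype, and the titles gave genotype and replicate number. The authors deposited linear intensity values, 1 for each probe set on each array, made with MAS5 per the submitters' processing notes. The 2% trimmed mean was the same on all arrays. Detection calls and probe sequences were not used here, and the number of arrays limits the precision.

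Of 45101 probe sets, 64 controls were left out, 34945 carried 1 gene symbol, 932 carried more than 1 and stayed unnamed, and 9160 carried none here. Gene IDs of 34741 were found in the GRCm38.p6 table. A gene was represented by its probe set of highest mean signal and tested if this exceeded 35.1, the median of all values. For the test of genotype, log2(signal + 16) of all 4 arrays went into limma (version 3.58.1, R 4.3.3; lmFit, then eBayes with trend; no covariates), two-sided, with Benjamini-Hochberg adjustment over all genes or all probe sets tested. The script was tested on simulated data with independent noise and few changed probe sets. That setting differs from these arrays and does not show the error rate of the calls here. Figures were drawn with matplotlib 3.10.9. Promoter windows came from RefSeq.

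The members and lists were chosen with earlier results of these data known, so no p-value was adjusted over a list and no list was tested as a set. All members are named, with up to 4 called genes of each list with the greatest change, neighbours that passed with an absolute log2 difference of 1 or more, and 5 genes of like pattern; further genes were chosen after their values were seen. Alternatives were pseudocounts of 1 and 64, no filter or one at the 75th percentile, quantile normalization, median centring, no variance trend, an average over the probe sets of each gene, replicate number as a block, and leaving out single arrays. Same-numbered arrays deviated from their genotype means with a correlation of 0.012.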

Additional observations from a re-analysis of the deposited data

How the results depend on the processing

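Of the 10 genes, 8 kept their direction and their call under every one of the 13 alternatives in which they were tested; Cdkn1c was not tested with the filter at the 75th percentile. The exceptions were Ccnd2 and Ccnd3. Ccnd2 turned to -0.051 with median centring, and was lost without a filter (adjusted p = 0.0901), without a variance trend (0.206), with the replicate number as a block (0.0830) and in all 4 fits that leave out 1 array, all by limma. The count of the 10 genes called was 9 or 10 in all settings. With the replicate block it was 9, and 7418 genes were called in all, against 7212; the numbers share no known source, and 2 pairs are too few to show pairing. Leaving out 1 array, with the probe set of each gene kept, gave 6545 to 6603 called genes, and then the lone array of a genotype is assumed to vary like the others. With the filter at the 75th percentile, where fewer genes are tested, 5 of 7 retinoblastoma and E2F genes were called in place of 9 of 12. Of the neighbouring genes 13 of 13 were called in place of 21 of 32. Over all genes, 5189 of 6832 were called with that filter. Averaging the probe sets of each gene left 13 of 29 neighbouring genes called, beside 6260 of 10583 of all genes, and the cause was not tested. The same setting ended the calls of Cdk2, Creb1, Stk38 and Slbp. The alternatives for neighbouring genes were chosen after seeing the data. With median centring Cdkn1a had an adjusted p of 6.88e-270 at an SE of 0.11, against 1.50e-09 at 0.09 in the main fit (both limma). So small a value from 2 arrays a genotype rests on how the variance was modelled. The lowest adjusted p-values of the ranges given above are therefore no measure of strength. Low signals limit Slc22a18, Trp63, Fgf23, Tyms, Cbx7, Ifi202b, 2810433D01Rik and the dim probe sets of Ccnd3. Low signals in SMRTmRID limit the sizes given for Perp and Eda2r, and low signals in wild-type those for Thy1 and Fap.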
